A study of Canis lupus familiaris with 10 samples.

Results

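The genes described here are 5 translation factors (EIF3G, EIF4A1, EIF4B, EIF5B and EEF2) and 2 inhibitory 4E-binding proteins (EIF4EBP1 and EIF4EBP3), 7 of the 19856 genes in the count tables. They were chosen because the study had called them higher after treatment in these same samples, by DESeq2 with the animal as a pairing factor. Their difference between the groups is therefore a property of the choice, and it is described below without a test. Visceral adipose tissue (VAT) of 5 adult Beagle dogs (3 males and 2 females) was collected by laparotomy before treatment (Pre-ACTH, n = 5) and again after 25 weeks (Post-ACTH, n = 5). During those weeks the same dogs received tetracosactide, a synthetic ACTH analog that stimulates the dog's own cortisol secretion, from osmotic pumps under the skin that were changed every 4 weeks. In the last period the pumps gave 6 to 10 μg/kg daily, against 1.3 to 1.95 μg/kg in the first. No samples of untreated dogs followed over the same time were analysed here, so time and treatment cannot be told apart. Each dog was its own control, numbers 1 to 5 follow the animal IDs, and dogs 2 and 3 are the females.

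In the cap-dependent route of protein synthesis, the eIF4F complex binds the mRNA cap through eIF4E and unwinds the leader of the mRNA with the helicase eIF4A, assisted by eIF4B. The eIF3 complex, of which eIF3g is a subunit, brings the small ribosomal subunit to the mRNA, eIF5B promotes joining of the large subunit, and eEF2 moves the ribosome along by one codon after each peptide bond. The 4E-binding proteins hold eIF4E away from eIF4F while they are unphosphorylated, and the kinase complex TORC1, which responds to insulin and amino acids, releases this brake by phosphorylating them. Glucocorticoids are known to act on this machinery in several tissues. Messenger RNA levels, as measured here, carry no information on phosphorylation.

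The libraries held 8728330 to 14867529 counted reads, and the smallest was the Pre-ACTH library of dog 3. Values are given as normalized counts, which are reads scaled by edgeR's TMM factors to the mean library size, and the TMM factors lay between 0.973 and 1.05. All 7 genes passed the filter of at least 10 reads in at least 1 sample, as did 13577 genes in all. The lowest raw count of any of the 7 genes in any library was 272 reads (EIF4EBP1), where counting error alone gives a coefficient of variation of 6.06%, and for EEF2 the lowest was 27970 reads (0.598%). Transcript lengths were not used, so the level of 1 gene cannot be set against that of another. Where genes are subtracted within a library, only the change of the difference between samples is read. The order of the factors by level, used for a median below, depends on transcript length too. LIPE, hormone-sensitive lipase, was the 1 adipocyte marker of 8 with a name here, and it was at 19596 normalized counts or more in every sample, so the labelled tissue was checked on that gene alone.

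EIF4A1 (ENSCAFG00000016632), the RNA helicase of eIF4F, showed the largest difference of the 5 factors. Its normalized counts in dogs 1 to 5 were 3651, 3350, 4076, 4368 and 4307 in Pre-ACTH and 4257, 5858, 6299, 7913 and 6905 in Post-ACTH. Every dog was higher after treatment, but the groups overlapped, because the Post-ACTH sample of dog 1 lay below the Pre-ACTH samples of dogs 4 and 5. Mean levels were 3950 ± 438 before and 6246 ± 1353 after treatment (SD, n = 5), and the fitted log2 fold change was 0.64 (SE 0.11). In bulk tissue, more cells of a type and more RNA per cell cannot be told apart. The log2 ratio was 0.22 in dog 1 and ran from 0.63 to 0.86 in the other dogs. The SD between dogs was larger in Post-ACTH than in Pre-ACTH, and dog 4 was the highest at both times. The RefSeq table of another dog assembly places snoRNA and pseudogene entries within this gene, and reads could also be shared with the close paralog EIF4A2. How such reads were counted is not stated.

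EIF4B (ENSCAFG00000007117), the cofactor that stimulates this helicase, had normalized counts of 9836, 9409, 11400, 9357 and 8914 in Pre-ACTH and of 12667, 12332, 13404, 13338 and 12844 in Post-ACTH, in the order of dogs 1 to 5. The lowest Post-ACTH value lay above the highest Pre-ACTH value, which belonged to dog 3. The Post-ACTH samples were close together, with a coefficient of variation of 3.51% against 9.82% in Pre-ACTH. The log2 fold change was 0.41 (SE 0.09), from 0.23 in dog 3 to 0.53 in dog 5. Within a library, EIF4A1 differed by more than EIF4B in 4 of 5 dogs, and the log2 CPM of EIF4A1 minus that of EIF4B changed by 0.23 ± 0.23 (SD, n = 5). Dog 1 was the exception, with a change of -0.14, so the mean difference was no larger than its spread. The RefSeq table shows another entry overlapping EIF4B.

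EIF3G (ENSCAFG00000017908), a subunit of the eIF3 complex, was at 2250, 2488, 2612, 2290 and 2494 normalized counts in Pre-ACTH and at 2889, 3382, 2975, 3039 and 3217 in Post-ACTH. The groups did not overlap. Its log2 fold change of 0.35 (SE 0.07) was among the smaller ones, and the ratios of single dogs had an SD of 0.10, at percentile 5.03 among all tested genes, whose median SD was 0.31. A small spread of these ratios is part of what a paired test selects. The RefSeq table shows P2RY11 overlapping EIF3G, and the strand setting of the counting is not stated.

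EIF5B (ENSCAFG00000002278), the GTPase of subunit joining, was counted with the fewest reads of the 5 factors, 525 to 1478 in a library. It was at 546.5, 657, 739, 972 and 893 normalized counts in Pre-ACTH and at 834, 1029, 1056, 1377 and 949 in Post-ACTH. The groups overlapped, and dog 4 was the highest and dog 1 the lowest at both times. The log2 fold change was 0.47 (SE 0.10). Ratios of 0.61, 0.65, 0.51 and 0.50 in dogs 1 to 4 stood against 0.09 in dog 5, whose Pre-ACTH value was the second highest and whose Post-ACTH value was the second lowest.

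EEF2 (ENSCAFG00000019158), the elongation factor, took 0.257% to 0.423% of all counted reads in each library. Its normalized counts were 34337, 38777, 39390, 34125 and 34293 in Pre-ACTH and 44124, 56345, 45626, 43731 and 40483 in Post-ACTH. All Post-ACTH values lay above all Pre-ACTH values, by at least 1093 normalized counts, and dog 2 stood highest in Post-ACTH. The log2 fold change was 0.34 (SE 0.11), with ratios from 0.21 in dog 3 to 0.54 in dog 2. It was the smallest change of the 7 genes and the one nearest to the limit of the study's rule. With DESeq2 its adjusted p was 0.00714, against a limit of 0.01, followed by EIF3G with 0.00569. Genes just outside the limit have no symbol here. For EEF2, too, the RefSeq table shows another entry overlapping the gene.

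Together the 5 factors took 0.385% to 0.474% of the reads of the Pre-ACTH libraries and 0.489% to 0.593% of those of the Post-ACTH libraries. Most of these reads were of EEF2, which alone took 0.257% to 0.423% over all libraries, so the sums mainly follow that gene. The median of their log2 ratios was 0.36, 0.54, 0.23, 0.50 and 0.37 in dogs 1 to 5, a mean of 0.40 ± 0.12 (SD, n = 5). The median of all tested genes lay between -0.011 and 0.0071 in the same dogs, but TMM scaling places it near 0 by design. The factor with the smallest ratio was EIF4A1 in dog 1, EIF4B in dog 2, EIF3G in dog 3, EEF2 in dog 4 and EIF5B in dog 5. In dog 3, whose Pre-ACTH library was the smallest, EIF3G, EIF4B and EEF2 had their lowest ratios. The part of library size in this was not tested.

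**Figure D1:**
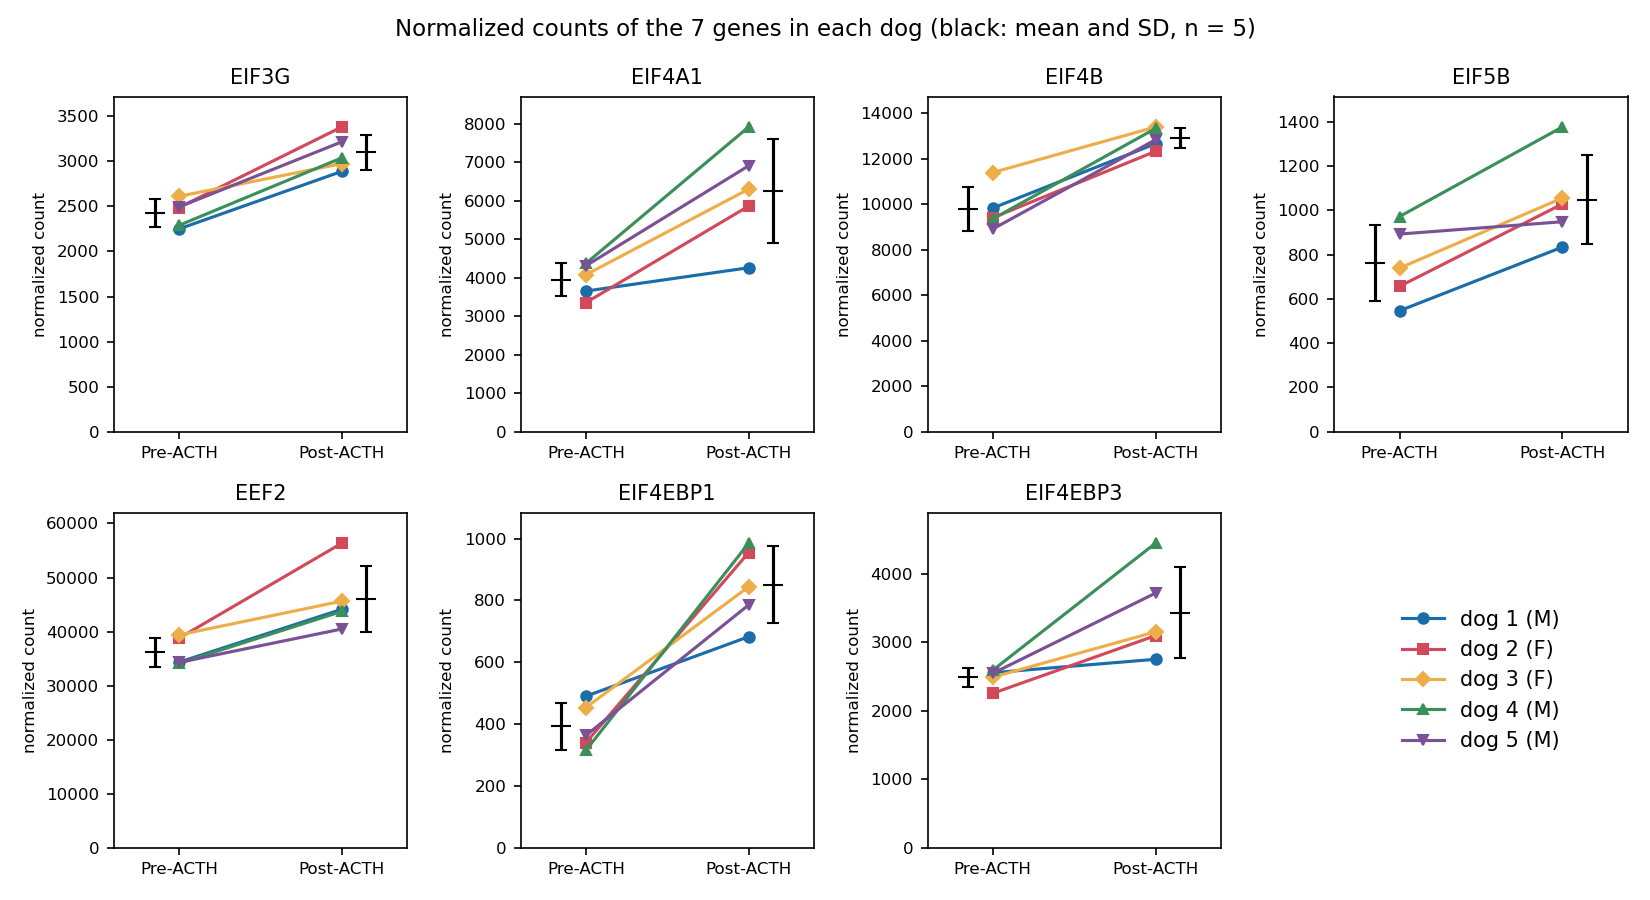
Normalized counts (vertical axes, each starting at 0) of the 7 genes in Pre-ACTH and Post-ACTH samples, with a line for each dog and the mean ± SD of 5 dogs in black beside the points. All lines slope upward, and the groups overlap for EIF4A1 and EIF5B. Relative to the axis of each panel, the lines of EIF4EBP1 are the steepest on average, with means of 393 and 850 normalized counts.

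EIF4EBP1 (ENSCAFG00000006154) encodes 4E-BP1, the inhibitor of eIF4E that is abundant in fat and is controlled by insulin through TORC1. It was at 490.3, 340.1, 453, 315 and 364 normalized counts in Pre-ACTH and at 683, 955, 844, 985 and 785 in Post-ACTH, in the order of dogs 1 to 5. The groups did not overlap, with 192 normalized counts between the highest Pre-ACTH and the lowest Post-ACTH sample, both from dog 1. The mean was 2.17 times as high in Post-ACTH, with a log2 fold change of 1.12 (SE 0.17). The log2 ratio ran from 0.48 in dog 1 through 0.89 in dog 3, 1.11 in dog 5 and 1.48 in dog 2 to 1.64 in dog 4. The dogs did not keep their order. Dog 1 was the highest before treatment and the lowest after it, and dog 4 was the lowest before and the highest after. The RefSeq table places a lncRNA entry over part of this gene.

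EIF4EBP3 (ENSCAFG00000005786) encodes 4E-BP3, a related inhibitor of eIF4E. Its Pre-ACTH values of 2555, 2255, 2490, 2591 and 2546 normalized counts lay close together, with a coefficient of variation of 5.42%, whereas its Post-ACTH values of 2751, 3096, 3152, 4444 and 3716 spread over a coefficient of variation of 19.3%. The groups did not overlap, although dog 1 moved by 0.11 on the log2 scale and dog 4 by 0.78. The log2 fold change of 0.45 (SE 0.10) lay inside the range of the 5 factors and was less than that of EIF4EBP1. In the RefSeq table EIF4EBP3 lies next to ANKHD1. Transcripts that run through both genes are known in other mammals, and whether the counted gene model holds such exons is not stated, so its reads may include them.

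**Figure D2:**
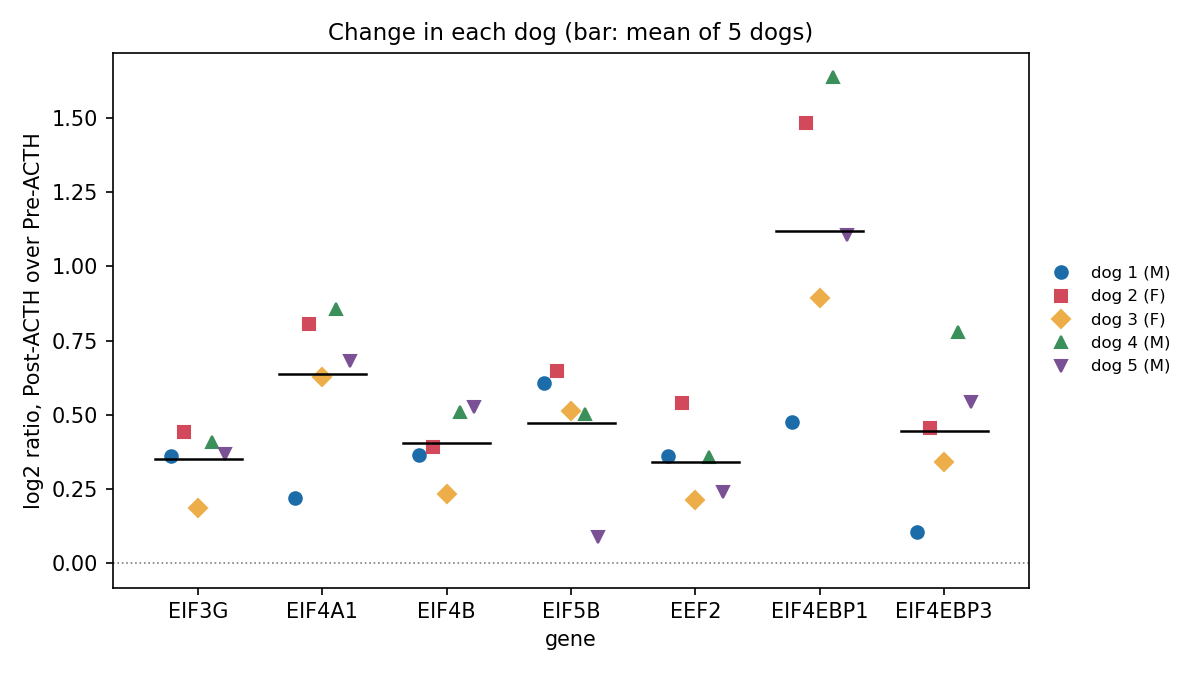
Log2 ratio of Post-ACTH over Pre-ACTH (vertical axis) for each of the 7 genes, with 1 symbol for each dog and a bar at the mean of 5 dogs. All 35 points lie above 0, EIF4EBP1 has the highest mean (1.12), and dog 1 is the lowest point for EIF4A1, EIF4EBP1 and EIF4EBP3.

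Setting the inhibitors beside the factors, EIF4EBP1 had the largest ratio of the 7 genes in 4 of 5 dogs, and in dog 1 it came after EIF5B. To remove the scaling between libraries, the mean log2 CPM of the 5 factors was subtracted from that of each inhibitor within the same library. For EIF4EBP1 this difference was -3.14, -3.74, -3.49, -3.98 and -3.76 in the Pre-ACTH libraries of dogs 1 to 5 and -3.04, -2.82, -2.95, -2.87 and -3.03 in their Post-ACTH libraries. All Post-ACTH values lay above all Pre-ACTH values, and the Post-ACTH values were closer together. The change averaged 0.68 ± 0.39 (SD, n = 5), equal to 1.60 times as much EIF4EBP1 mRNA per unit of the factors, but it was only 0.09 in dog 1, against 0.54 to 1.11 in the other dogs. Without dog 1 it averaged 0.82.

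EIF4EBP3 showed no common direction against the factors. Its difference was -0.76, -1.02, -1.04, -0.95 and -0.96 in Pre-ACTH and -1.04, -1.13, -1.06, -0.70 and -0.79 in Post-ACTH. It went down in dogs 1, 2 and 3 and up in dogs 4 and 5. The change averaged 0.0030 ± 0.21 (SD, n = 5), well within the spread between dogs. Its sign turned without dog 4 (-0.059) and without dog 5 (-0.037). With the median level of the factors in each library in place of their mean, the change was -0.19. In every library that median was the level of EIF4A1, the factor with the largest change, so this value compares EIF4EBP3 with EIF4A1 alone. EIF4EBP1 moved further than EIF4EBP3 in all 5 dogs, by 0.67 ± 0.26 (SD, n = 5) on the log2 scale, from 0.37 in dog 1 to 1.03 in dog 2. All these genes were chosen for their change in these samples, so the differences between them are given without a test.

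**Figure D3:**
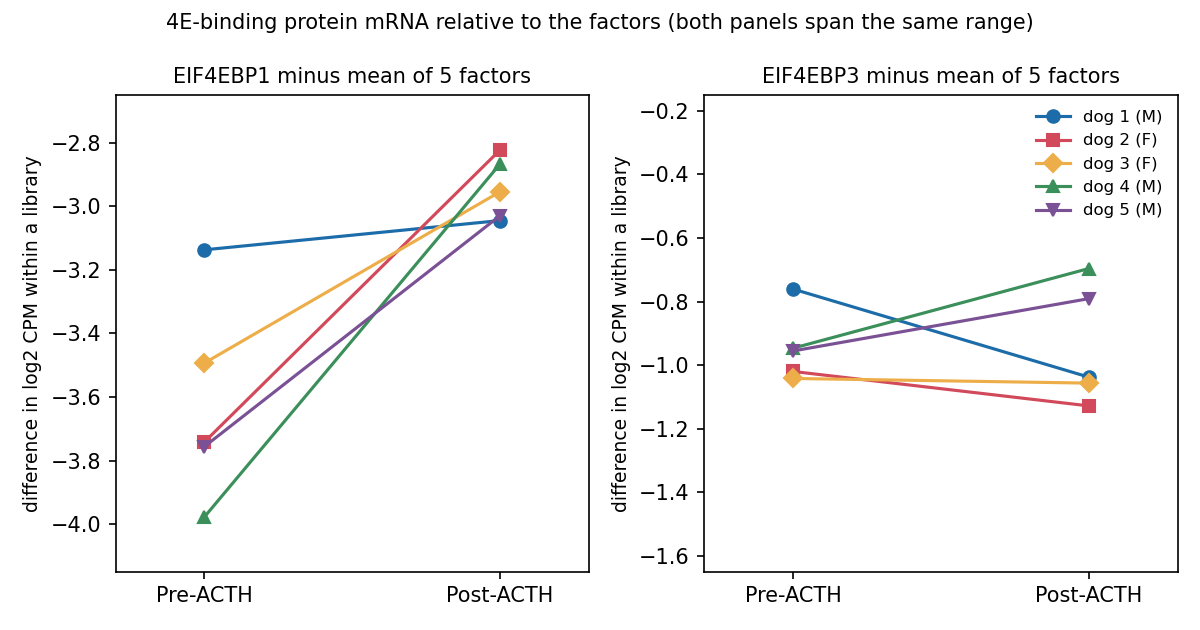
Difference in log2 CPM between each 4E-binding protein and the mean of the 5 factors within the same library (vertical axes, spanning equal ranges), Pre-ACTH and Post-ACTH, with a line for each dog. The 5 lines of EIF4EBP1 go up, that of dog 1 by 0.09, while those of EIF4EBP3 go up in 2 dogs and down in the other 3.

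Among all 13577 tested genes, the median log2 fold change was -0.0021, which the scaling places near 0, and 5% of genes exceeded 0.65. The 7 genes lay between the 87.0th percentile (EEF2) and the 98.1st (EIF4EBP1), and EIF4EBP1 ranked 261 from the top. In the paired fit, edgeR's quasi-likelihood test called 1 of the 7 genes, EIF4EBP1, higher at FDR under 0.01, where 0.751% of all tested genes were called higher. At FDR under 0.05 it called 6 of them, all but EEF2, against a background of 4.84%. DESeq2 called 7 of 7 at FDR under 0.01, against 3.68%, which restates the choice of the genes. The groups did not overlap for 5 of the 7 genes, and for 4.3% of all tested genes in that direction. All 7 were higher in each of the 5 dogs, as were 13.4% of all tested genes. Since the genes were chosen on this contrast, nothing is read from these counts. They also hung on single dogs. At FDR under 0.05 edgeR called 4 of the 7 genes without dog 1 or without dog 3, 2 without dog 4 or without dog 5, and 1 without dog 2. EIF4EBP1 was called in each of these 5 fits at FDR under 0.05, and at FDR under 0.01 only in the fit without dog 1, which called 2 of the 7 genes.

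**Figure D4:**
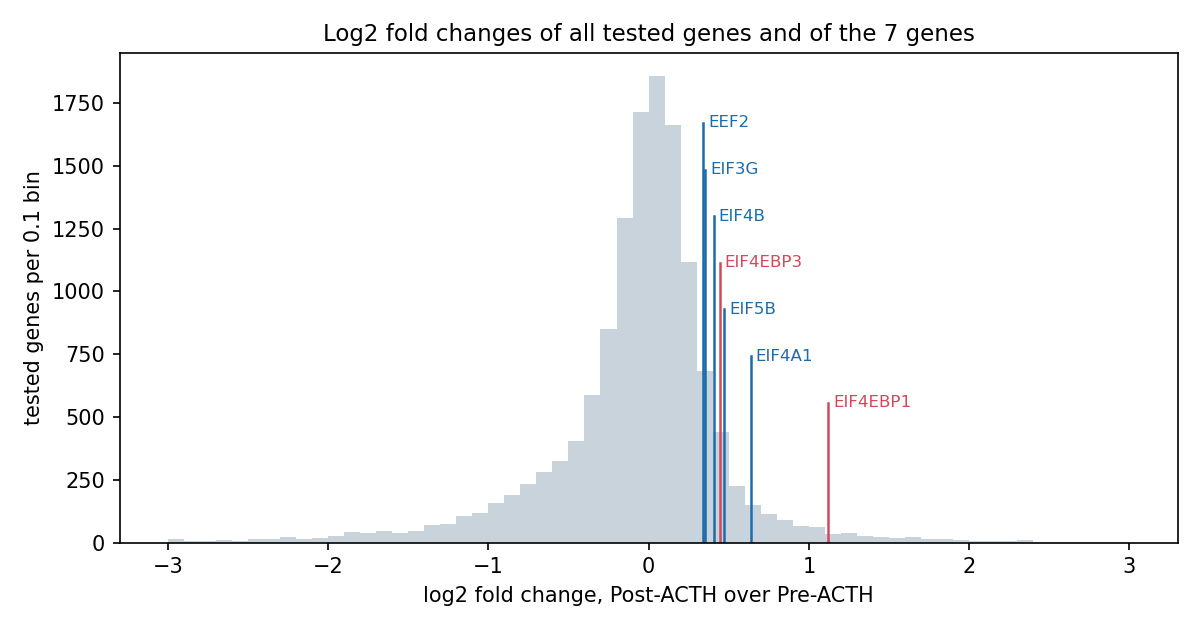
Histogram of the log2 fold changes of all tested genes (number of genes per bin of 0.1, horizontal axis from -3 to 3), with lines at the 5 factors in blue and the 4E-binding proteins in red. The line heights only carry the labels. The factors lie between 0.34 and 0.64, at the upper shoulder of the histogram, and EIF4EBP1 stands apart at 1.12.

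The change was then compared between the sexes. Sex was not used in the choice of the genes, but the choice was not independent of this comparison. A paired test favours genes whose change varies little between dogs, and a sex difference is part of that variation. How many of the 7 genes pass is therefore partly set by the choice, and nothing is read from it. Females changed more than males by 0.18 (SE 0.20) in EIF5B, 0.13 (SE 0.23) in EIF4A1, 0.12 (SE 0.36) in EIF4EBP1 and 0.06 (SE 0.25) in EEF2 on the log2 scale. They changed less in EIF4B (-0.16, SE 0.19), EIF4EBP3 (-0.08, SE 0.23) and EIF3G (-0.06, SE 0.16). None of the 7 genes had an unadjusted p under 0.05 in edgeR's quasi-likelihood test of the interaction of treatment and sex, and each adjusted p was 1.0. Of all 13577 genes, 435 (3.2%) had an unadjusted p under 0.05 and 0 were called (0% at FDR under 0.01 and under 0.05). DESeq2 called 5 genes at FDR under 0.01, none of them among the 7. With 3 males and 2 females the standard errors were as large as the differences themselves or larger, and for EIF4EBP1 the standard error of 0.36 was close to the change of EIF3G itself.

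Differences between dogs that were present at both times were tested in the same paired model, a comparison added after seeing the data. EIF5B had an unadjusted p of 0.0114 and an adjusted p of 0.226 (edgeR quasi-likelihood test of the dog terms), and the adjusted p of the other 6 genes lay between 0.379 and 0.97. An unadjusted p under 0.05 was reached by 14.1% of all tested genes, and 36 (0.265%) were called at FDR under 0.05. For EIF5B, where dog 4 was highest and dog 1 lowest at both times, the difference between dogs did not pass the adjusted test.

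Other genes of the pathway were sought in 8 lists holding 98 genes of the translation factors, their repressors and TORC1 signaling. The count tables give Ensembl identifiers only, and names were available only for genes that the study had called, so 14 of the 98 could be followed, the 7 genes above and 7 others, and the other 84 were not analysed here. All 41 initiation factors on the list but 4, and all 9 elongation factors but EEF2, are among the 84. How the families moved as a whole is thus unknown. As calls of the same samples the 7 other genes are no independent evidence of a direction either. At FDR under 0.05 edgeR called 5 of them higher and 1 lower (background 4.84% higher and 6.28% lower, 11.1% in both directions), at FDR under 0.01 it called 0 (background 1.97%), and DESeq2 called 7 at FDR under 0.01 (background 8.69%).

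The poly(A)-binding proteins, which bind the mRNA tail and touch eIF4F through eIF4G, were higher by 0.45 (SE 0.08) for PABPC1 and by 0.55 (SE 0.09) for PABPC4, within the range of the initiation factors. Ratios of PABPC1 ran from 0.32 to 0.59 in single dogs. TUFM, the mitochondrial elongation factor that delivers aminoacyl-tRNA, was higher by 0.40 (SE 0.09). PPP1R15A, also known as GADD34, brings a phosphatase to eIF2 and so restores initiation after stress. Its Pre-ACTH samples lay at 278 to 458 normalized counts and its Post-ACTH samples, which overlapped them, at 417 to 746, a log2 fold change of 0.67 (SE 0.11), close to that of EIF4A1.

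Upstream of the 4E-binding proteins, DDIT4 (REDD1) and the sestrins are stress-inducible inhibitors of TORC1, and DDIT4 is a known glucocorticoid target. DDIT4 had Pre-ACTH values of 694, 1591, 342, 657 and 480.0 normalized counts in dogs 1 to 5 and Post-ACTH values of 729, 2221, 732, 2335 and 2244. The groups overlapped, its log2 fold change of 1.14 had an SE of 0.31, and it was the 1 gene of these 7 that edgeR did not call at FDR under 0.05. SESN1 had a log2 fold change of 1.01 (SE 0.25). In both genes the ratio of dog 1 was close to 0 (0.07 and 0.03), whereas in the other dogs it ran from 0.48 to 2.22 and from 0.72 to 1.96. SESN3 went the other way, with a log2 fold change of -1.12 (SE 0.19) and lower values in all 5 dogs. The 2 named sestrins thus differed in opposite directions.

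**Figure D5:**
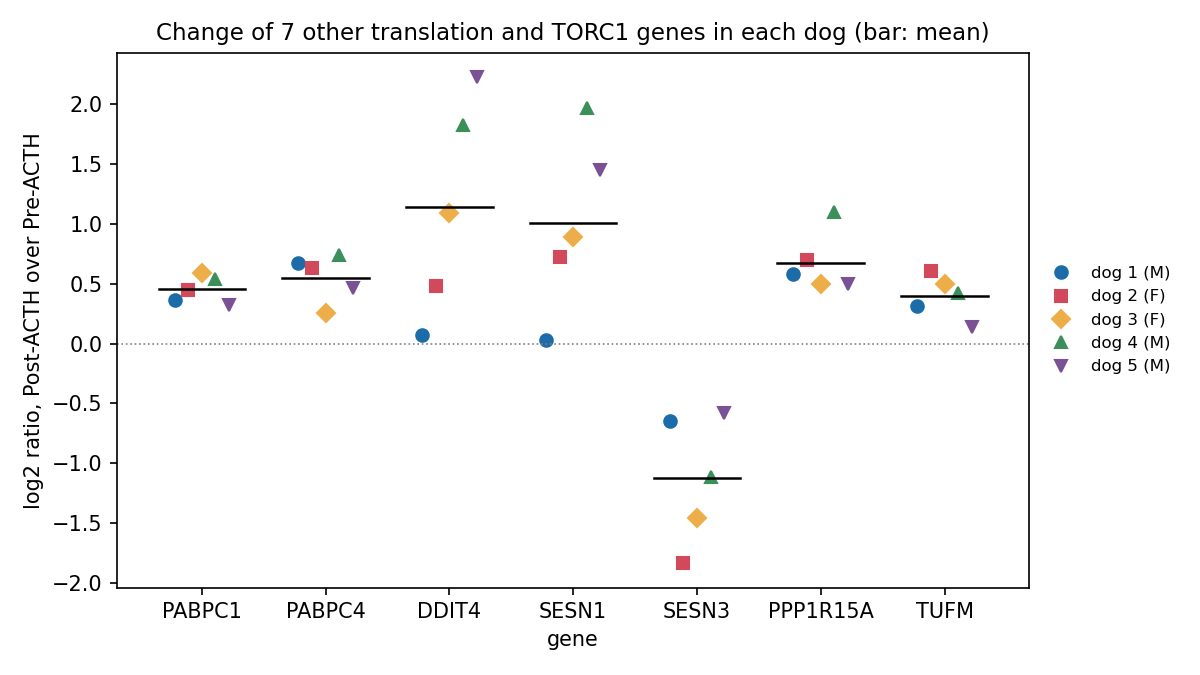
Log2 ratio of Post-ACTH over Pre-ACTH (vertical axis) for 7 other named genes of translation and TORC1 control, with 1 symbol for each dog and a bar at the mean of 5 dogs. SESN3 lies below 0 in all dogs, and the points of DDIT4 and SESN1 spread from near 0 in dog 1 to 2.22 and 1.96.

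The genes whose levels followed the 7 genes most closely were taken from 855 named genes with a mean of at least 100 normalized counts, all of them calls of the same contrast, by Pearson correlation of log2 CPM over the 10 samples. The samples are 5 pairs and fall into 2 groups, and the correlations are given as a description, with the difference between the groups not removed. For the mean of the 5 factors they were PHF5A, a splicing factor subunit (r = 0.99), RPS3 (0.98) and RPL3 (0.97), proteins of the small and the large ribosomal subunit, RTN3, a reticulon of the endoplasmic reticulum (0.97), and IMPDH2, an enzyme of guanine nucleotide synthesis (0.97). For EIF4EBP1 they were RTN4RL1, a receptor of the Nogo family (0.97), RPL8 of the large ribosomal subunit (0.97), and KLHL25, an adaptor of a ubiquitin ligase (0.97). RAN, the GTPase of nuclear transport (0.97), and GCAT, an enzyme of threonine breakdown (0.97), came next. RTN4RL1 had a mean of 11.2 normalized counts in Pre-ACTH and 498.6 in Post-ACTH, so it reached the level limit only through Post-ACTH. Among the 7 genes themselves, EIF4A1 and EIF4EBP3 were the most alike (r = 0.96), followed by EIF4B and EIF4EBP1 (0.92), and EEF2 and EIF4EBP3 the least (0.46).

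Named markers of adipocytes and of other cell types were also compared between the groups. LIPE was at 19596 to 25067 normalized counts in Pre-ACTH and at 27688 to 33574 in Post-ACTH, a log2 fold change of 0.48 (SE 0.11). For markers of fibroblasts and progenitors, 5 of 6 had a name (PDGFRB, DCN, LUM, COL1A1 and COL1A2), and their summed level was 12159 to 31031 before treatment and 5878 to 8655 after it. CSF1R, 1 of 6 macrophage markers, was lower in 4 of 5 dogs, with a log2 fold change of -0.75 (SE 0.21). MYH11, 1 of 4 smooth muscle markers, was higher in 4 of 5, with a log2 fold change of 0.89 (SE 0.29). The groups overlapped for both genes, and edgeR called neither of them at FDR under 0.05. CKM, the muscle creatine kinase and 1 of 4 skeletal muscle markers, was at most 212 normalized counts in Pre-ACTH and at least 561 in Post-ACTH. No gene of the T cell, endothelial and mesothelial lists had a name here. All these named markers are calls of the same contrast, and the part of tissue makeup in the change of the 7 genes was not tested.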

How the data were processed

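RNA-seq was performed on VAT of 5 Beagle dogs, Pre-ACTH and Post-ACTH, and samples were paired by the animal ID in the labels. Library kit and read length differ between the labels and the study's methods. The authors trimmed the reads, used STAR for alignment to CanFam3.1 and featureCounts for reads per Ensembl gene, and deposited raw counts without normalization. Versions, annotation release, strand setting and multi-mapping reads are not given in the sources used here. Libraries held 8728330 to 14867529 counted reads, and counting error was at most 6.06% (coefficient of variation) in any value of the 7 genes.

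From the counts, edgeR 4.0.16 (R 4.3.3, TMM, quasi-likelihood test, dog as a block) was fitted to the 13577 genes that reached 10 reads in any sample, with Benjamini-Hochberg adjustment over all of them and FDR limits of 0.01 and 0.05. Each SE of a log2 fold change or sex difference is its absolute value divided by the square root of the F statistic of its quasi-likelihood test. It is not the standard error of the single-dog ratios. Log2 CPM used a prior count of 2. For the interaction with sex, a term for treatment in females was added to this model, which was then fitted anew. Deviations from the group means correlated by 0.0772 to 0.412 within dogs (mean 0.274) and by -0.359 to 0.206 between dogs (mean -0.0678), so the ranges overlapped, and the pairing itself comes from the animal IDs. Each dog gave 1 sample at each time. With dog as a block, the p-values of the change rest on how the change varied between dogs, not on differences in level between dogs. The variance estimates behind them drew on all tested genes as well as on the gene itself. The labels name no batch.

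Alternatives were DESeq2 1.42.0, limma-voom (limma 3.58.1), other scalings and filters, no block and leaving out each dog. The test between dogs was added after seeing the data. The genes and lists were chosen with earlier results of these data known. Named are the 7 genes, the list genes with a symbol, the 5 most correlated named genes for each of 2 profiles, and markers. Symbols came from the study's list of called genes (1079 of 1190 named). The RefSeq table, which is of the assembly UU_Cfam_GSD_1.0, holds no Ensembl identifiers and gave only neighbouring genes.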

Additional observations from a re-analysis of the deposited data

Results flagged for a closer look

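Of 27 groups of 5 values examined (levels in each group and single-dog ratios of the 7 genes, and the same for the 2 inhibitors relative to the factors), 1 held a value far from the rest, about as many as chance gives with a limit that is passed in about 1 group in 20. The log2 ratio of EIF5B was 0.087 in dog 5, against 0.50 to 0.65 in the other 4 dogs, and its gap to the nearest of them was 0.741 of the whole range. Without dog 5 the log2 fold change of EIF5B was 0.57.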

How the results depend on the processing

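The median log2 fold change of the 5 factors stayed between 0.38 and 0.41 over 8 other scalings, filters and tests and between 0.38 and 0.46 with each dog left out, and that of EIF4EBP1 between 1.096 and 1.13 and between 0.99 and 1.28. The counts of called genes varied more. Of the 7 genes, 1 was called at FDR under 0.01, and 0 with total counts or with 10 reads in 5 samples, 2 with no filter and 7 with DESeq2. At FDR under 0.01, the 268 genes called became 438 with no filter, 1180 with DESeq2 and 1 to 318 with each dog left out (1 without dog 2, 12 without dog 3, 23 without dog 5 and 117 without dog 4), and at FDR under 0.05 the 1509 became 381 to 1566 with each dog left out. Of the 14 named translation list genes, 1 was called at FDR under 0.01, and this became 0 with total counts, 5 with no filter, 0 with 10 reads in 5 samples, 14 with DESeq2, 2 with limma-voom and 0 to 2 with each dog left out. At FDR under 0.05 the 12 called became 3 to 11 with each dog left out. Without the replicate block, 262 genes were called at FDR under 0.01, and the median change of the factors was 0.40. The pairing moved no count by over 1.5 times, and of the 7 genes 5 were called at FDR under 0.05 in place of 6. For sex, DESeq2 called 5 genes in place of 0. For differences between dogs, 36 genes became 71 with no filter and 6 to 44 with each dog left out. The change of EIF4EBP1 against the factors, 0.68, was 0.57 to 0.82 with each dog left out. It was 0.48 with the median level of the factors in each library, which was that of EIF4A1 in every library. This value therefore compares EIF4EBP1 with EIF4A1 alone, the factor with the largest change. The change of EIF4EBP3 against the factors, 0.0030, was -0.059 to 0.073 with each dog left out, and -0.19 against the same median, that is against EIF4A1 alone. The sex difference of EIF4B kept its sign with each dog left out (-0.24 to -0.097). Those of the other 6 genes changed sign in at least 1 such fit, and ranged over -0.20 to 0.045 for EIF3G, -0.052 to 0.27 for EIF4A1, -0.0026 to 0.29 for EIF5B, -0.11 to 0.20 for EEF2, -0.18 to 0.40 for EIF4EBP1 and -0.26 to 0.072 for EIF4EBP3, and EEF2 was at -0.0004 with total counts. Fits with a dog left out rest on fewer samples, and for the other changes the cause was not tested. At the lowest raw count of the 7 genes, 272 reads, counting error was 6.06%, and the counts of calls moved further with single dogs left out than with other scalings.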
